A study of Danio rerio with 80 samples.

Results

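The exposure of zebrafish embryos to 13.3 µM 8-methylbenzo[a]pyrene (8-MBaP) was compared with the solvent control at 48 h post-fertilization (hpf), gene by gene, in 8 libraries out of the 80 of the series. The members were taken by their sample labels and by nothing measured: the 4 libraries of 13.3 µM 8-MBaP and the 4 control libraries of 48 hpf, lettered A to D in each group. Both groups were wildtype (5D WT) whole animals, dechorionated, of the same age, and kept in the same 1% DMSO, the solvent. The exposed embryos received 8-MBaP once, from 6 hpf by the labels and 7 hpf by the methods, with no exchange of the solution. The groups compared further on received 8-MBaP at the lower concentrations of 0.133 or 1.33 µM, or benzo[a]pyrene (BaP) or its 6-methyl derivative (6-MBaP) at each of the 3 concentrations, all in the same strain and solvent and at the same age, so that the fit held 40 libraries in 10 groups. Each library was a pool of 6 living embryos collected regardless of appearance, and the 4 sequenced pools of a group were those with the most concentrated RNA out of 5 collected. All pools of a group came from 1 plate, so plate and exposure cannot be told apart, and the errors given reflect only the spread between pools within a plate. The age of 48 hpf was chosen by the study as a time before any change in shape could be seen.

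BaP is a polycyclic aromatic hydrocarbon of 5 fused rings, and 8-MBaP and 6-MBaP carry 1 methyl group on it, at position 8 or 6. Planar aromatic compounds of this kind can bind the aryl hydrocarbon receptor (AHR), a transcription factor that waits in the cytoplasm with chaperones, moves to the nucleus once a ligand is bound, pairs with ARNT and switches on genes for detoxifying enzymes. Cytochrome P450 1A is the classic readout of that switch, and in zebrafish Ahr2 is the receptor that most toxic ligands act through. The caudal fin of an embryo at this age is a fold of skin stiffened by actinotrichia, fine rods built from collagens and actinodin proteins, so skin and fin fold genes are read here beside the AHR genes.

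Messenger RNA was counted by its 3′ ends, and levels are given as normalised read counts, that is, counts divided by the library's effective size relative to the mean size. A gene was called where edgeR's quasi-likelihood F test passed a threshold of 0.05 after Benjamini-Hochberg adjustment, whatever the size of the change. Errors (±) are the SD over 4 pools for levels and the standard error for log2 differences. The 8 libraries held 5353245 to 6855368 counts and 17177 to 17932 detected genes, with the controls at the lower end, up to 6006143, and the exposed pools from 6325996 upward. On the first principal component, with 18.9% of the variance, the exposed pools lay together at 22.1 to 29.9 and the controls at −45.2 to −12.6. The controls were not uniform: on the second component, with 15.5%, pools A and B lay at −24.4 and −27.6 and pools C and D at 46.5 and 36.4. Where a named gene lost its call with either pair left out, its adjusted p without that pair is given beside it.

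Of 17794 genes tested, 274 were called, which is 1.54%. In each direction 137 were called, 0.77% of the genes tested, and the median log2 fold change of all genes was 0.0016. The exposed and control pools did not overlap for 230 of the 274 called genes, and for 1065 of all genes tested, 5.99%. The largest rise among genes read in the controls was that of *cyp1a*, at a log2 fold change of 7.45, while the lowest p among the falls belonged to *and2* at −1.74. Without exposed pool C the count fell to 171, and without control pools A and B to 152. *Ccl27a*, *arhgef33* and *si:dkey-18b8.8* were at 0 in all control pools and at 2.11 to 9.52 counts in the exposed pools. They were called at fitted log2 rises of 5.80, 5.46 and 5.41 (adjusted p = 0.0211, 0.0492 and 0.0417). Leaving out 1 library removed the call in 5 fits for *ccl27a* and in 7 for each of the others. Without control pools A and B the adjusted p was 0.231, 0.315 and 0.296, and without C and D 0.141, 0.208 and 0.19.

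**Figure D1:**
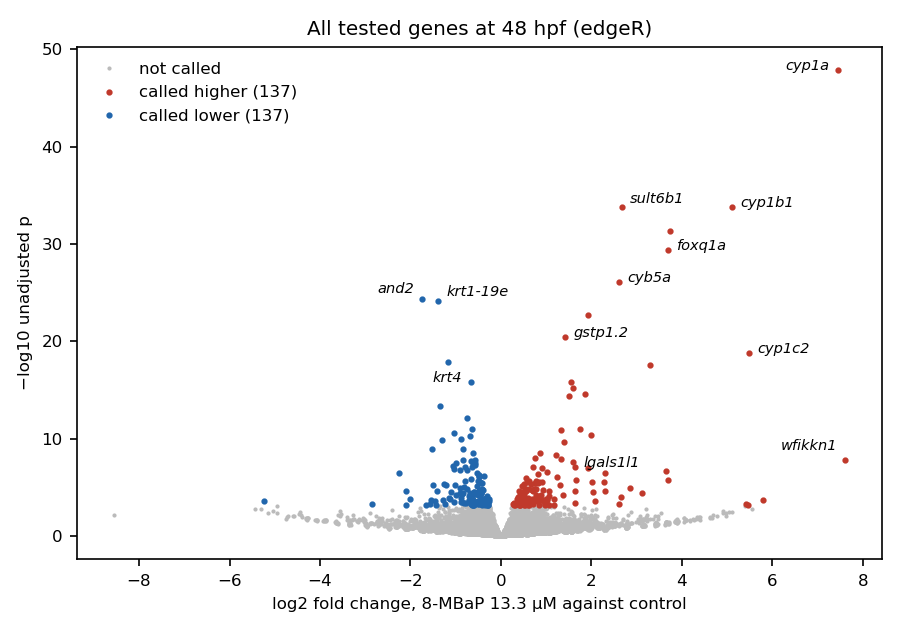
Fitted log2 fold change of 13.3 µM 8-MBaP against control (x axis) and −log10 of the unadjusted p (y axis) for the 17794 genes tested at 48 hpf, each point a gene, with the 137 genes called higher in red, the 137 called lower in blue and the rest in grey. *Cyp1a* stands apart at a log2 fold change of 7.45, and *and2* and *krt1-19e* lead the falls. The positions of genes at 0 in a group, such as *wfikkn1*, depend on the prior count of the fit.

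Genes of the AHR pathway were among the largest rises. Of 19 tested members of the AHR battery, 9 rose and 0 fell, where 0.77% of all genes tested were called in each direction, and the 9 rises were called with any 1 of the 8 libraries left out. The median log2 fold change of the 19 tested members was 0.93, or 0.45 with the genes absent from the controls set at their lower bound, against 0.0016 over all genes. The list was chosen with earlier results of these data known, so the count is a description. The shares over all genes, 0.77% in each direction and 1.54% in total, also stand beside the count of every list below.

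*Cyp1a* (ENSDARG00000098315), which encodes the cytochrome P450 that oxidizes planar hydrocarbons, was read at 29.4, 35.2, 37.2 and 28.0 normalised counts in control pools A to D and at 6333, 5952, 5525 and 5113 in exposed pools A to D. All exposed pools lay far above all controls. The fitted change was 175-fold (log2 7.45 ± 0.17, adjusted p = 2.48e-44, higher in 4 of 4 pools). *Cyp1b1* (ENSDARG00000068934), a related enzyme of developing eye and vessels, went from 22.0, 16.003, 40.5 and 23.3 in the controls to 778, 881, 929 and 954, a rise of 34.6-fold (log2 5.11 ± 0.20, adjusted p = 1.02e-30). *Cyp1c2* (ENSDARG00000101789), from a branch of the family that mammals lack, was barely read in the controls, at 6.12, 0, 2.25 and 8.16, and stood at 165, 168, 228 and 182 in the exposed pools (44.9-fold, log2 5.49 ± 0.42, adjusted p = 2.64e-16). The fourth member tested, *cyp1d1*, did not follow: its mean was 39.96 ± 7.09 in the controls and 32.8 ± 9.14 in the exposed pools, and the groups overlapped (adjusted p = 0.752).

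The receptor itself and genes that damp or relay its signal rose by less. *Ahr2* (ENSDARG00000021833), the receptor gene, went from 52.7, 61.9, 63.1 and 38.5 in the controls to 107, 115, 131 and 150, a rise of 2.32-fold with no overlap (log2 1.22 ± 0.18, adjusted p = 2.63e-06). *Tiparp* (ENSDARG00000061841), which encodes an ADP-ribosylating enzyme that represses AHR, went from 158, 117, 123 and 142 to 338, 363, 463 and 413 (2.93-fold, log2 1.55 ± 0.14, adjusted p = 1.76e-13). *Ahrra*, for the AHR repressor, was at 0 in all control pools and at 1.06, 3.06, 0 and 2.77 in the exposed pools, too few counts to be called (adjusted p = 0.406). The partners *arnt2* at 707 ± 45.3 against 724 ± 41.9, and *hsp90ab1*, the chaperone, at 12370.5 ± 1028 against 13281 ± 1351, were not called, and neither was *aip*, the co-chaperone, at 317 ± 28.7 in the controls and 276 ± 35.3 in the exposed pools.

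Transcription factor and secreted members rose with the enzymes. *Foxq1a* (ENSDARG00000030896), a forkhead factor, was at 35.5, 46.9, 23.6 and 32.7 in the controls and 492, 419, 419 and 474 in the exposed pools, 12.9-fold higher (log2 3.69 ± 0.17, adjusted p = 1.39e-26). Its paralog *foxq1b* rose 1.90-fold, from 77.0 ± 23.6 to 147 ± 26.4 (adjusted p = 0.00306), but not without control pools C and D (adjusted p = 0.123). *Wfikkn1* (ENSDARG00000101364), for a secreted protein that binds growth factors of the TGF-beta family, was at 0 in all 4 control pools and at 21.1, 22.4, 32.6 and 21.3 in the exposed pools. Against a floor of 3 counts per control library this is at least 7.08-fold higher (adjusted p = 8.17e-06).

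Other detoxifying enzymes of the list split. *Sult6b1* (ENSDARG00000086826), a cytosolic sulfotransferase, was read at 391.9, 333, 391 and 415 in the controls and at 2550, 2660, 2204 and 2346 in the exposed pools, a rise of 6.38-fold (log2 2.67 ± 0.11, adjusted p = 1.02e-30). *Ugt1a1*, a glucuronosyltransferase, was at 45.6 ± 5.48 against 62.5 ± 11.03, without overlap between the groups, but was not called (adjusted p = 0.419). *Nqo1*, the quinone reductase that is a standard AHR target in mammals, was at 200 ± 41.3 against 227 ± 56.8 with overlapping groups (adjusted p = 0.744).

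**Figure D2:**
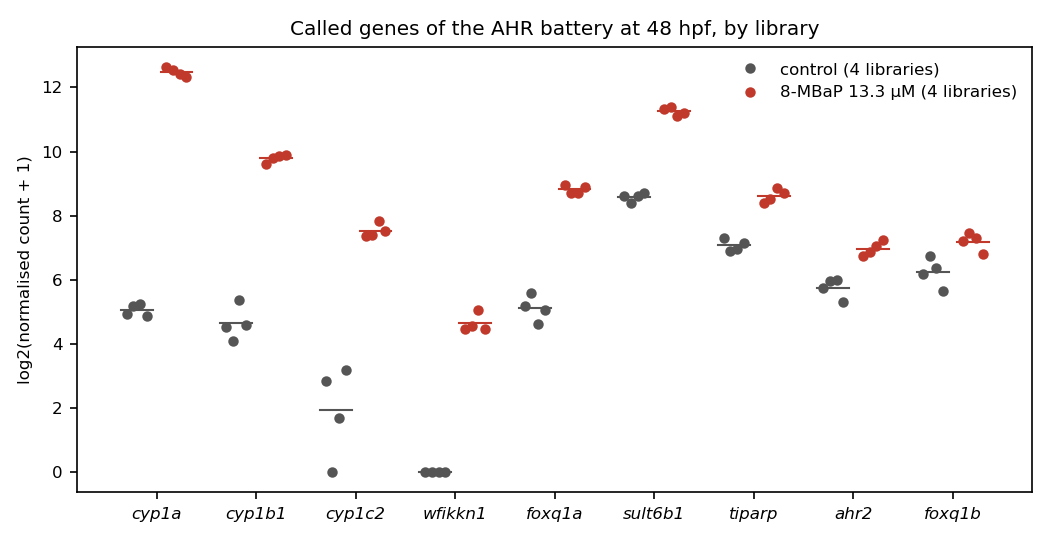
Normalised counts of the 9 called AHR battery genes, as log2(normalised count + 1) on the y axis, with 1 point for each library, controls in grey and 13.3 µM 8-MBaP in red, and a line at each group's mean. The 4 exposed pools lie above the 4 controls for every gene shown, from 21.1 to 32.6 against 0 for *wfikkn1* up to 5113 to 6333 against 28.0 to 37.2 for *cyp1a*.

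Other genes of the lowest p among the rises were enzymes and unnamed loci. *Cyb5a* (ENSDARG00000098589), for cytochrome b5, the small electron carrier that serves P450 enzymes, stood at 151, 161, 145 and 160 in the controls and at 1056, 1070, 985 and 634 in the exposed pools (6.06-fold, log2 2.60 ± 0.14, adjusted p = 2.19e-23). Exposed pool D was the lowest of its group and above all controls. *Gstp1.2* (ENSDARG00000104068), a glutathione transferase that couples reactive compounds to glutathione, went from 7973, 7181, 7877 and 8262 to 22617, 21850, 20744 and 18534, a rise of 2.68-fold at a high level (log2 1.42 ± 0.10, adjusted p = 6.82e-18). The locus ENSDARG00000091116, whose human counterpart is PKHD1L1, rose 13.3-fold from 38.8 ± 11.5 to 516 ± 46.5 (adjusted p = 2.11e-28), and the locus ENSDARG00000109310 rose 3.803-fold from 482 ± 92.0 to 1830 ± 163 (adjusted p = 4e-20). *Si:ch211-207n23.2* rose 9.87-fold, to 252, 268, 272 and 148 from 10.5 to 31.5 (adjusted p = 3.82e-15).

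A list of 56 phase I and II enzymes and transporters, which held neither *cyb5a* nor *gstp1.2*, had a median log2 fold change of 0.060. Of its members 1 rose and 0 fell, a called share of 1.79%, close to the 1.54% of all genes tested. The 1 was *slco1d1*, an organic anion transporter, at 41.8 ± 14.3 against 83.9 ± 17.8 (log2 1.00 ± 0.25, adjusted p = 0.0169), a call that was lost without exposed pool B or without control pool A, B or D, with an adjusted p of up to 0.0945, and without control pools A and B (0.34).

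Antioxidant genes of the Nrf2 pathway rose in part. Nrf2 is the factor that, freed from Keap1 by reactive compounds, switches on glutathione and peroxide enzymes. Of 41 members tested, 4 rose and 0 fell, which is 9.76% called, beside 1.54% of all genes tested. The median log2 fold change was 0.089, and the count was 2 without control pool B. *Nfe2l2a* (ENSDARG00000042824), the Nrf2 gene, went from 310, 440, 378 and 444 in the controls to 736, 671, 626 and 604 (1.67-fold, log2 0.74 ± 0.11, adjusted p = 4.87e-06), and all exposed pools lay above all controls. *Prdx1*, a peroxiredoxin that removes hydrogen peroxide, rose 1.46-fold from 1457 ± 184 to 2131 ± 206 (adjusted p = 0.000271). *Gsr*, glutathione reductase, at 93.3 ± 15.24 against 140 ± 12.9, and *nfe2l2b*, the second Nrf2 gene, at 5.49 ± 3.36 against 23.4 ± 9.93, were called at adjusted p of 0.0217 and 0.023. *Gsr* lost its call without exposed pool D, control pool A or control pool B (up to 0.122) or without control pools A and B together (0.426), and *nfe2l2b* without exposed pool B or D or control pool B, C or D (up to 0.110) or without control pools C and D (0.282).

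The falls were led by genes of the fin fold and the skin. Among actinotrichia and fin fold matrix genes, 0 of 26 rose and 4 fell, with a median log2 fold change of −0.14. The share called was 15.4%, beside 1.54% of all genes tested. *And2* (ENSDARG00000079302), an actinodin of the rods that stiffen the fin fold, was at 2443, 2495, 2539 and 2112 in the controls and at 616, 748, 657 and 856 in the exposed pools. The exposed pools were at 25.7 to 35.7% of the control mean, and the fall was 3.33-fold (log2 −1.74 ± 0.10, adjusted p = 1.27e-21). Its relatives fell by less. *And3* (ENSDARG00000056873) went from 818, 848, 742 and 777 to 492, 601, 499 and 540 (1.49-fold lower, adjusted p = 2.15e-05), and *and1* (ENSDARG00000088514) from 2455, 2422, 2247 and 2371 to 1624, 1884, 1457 and 1852 (1.39-fold lower, adjusted p = 0.000222). The groups did not overlap for any of the 3 actinodins. In whole embryos fewer cells of a type and less RNA per cell cannot be told apart, which holds for each tissue described here.

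Keratins are the filament proteins of epithelial cells. Of 22 tested, 6 fell, 0 rose and 16 were not called, the median log2 fold change was −0.35 (−0.27 with genes absent from a group set at their bound), and the 6 were called with any 1 library left out. Called members made up 27.3% of the list, beside 1.54% of all genes tested. The summed level of the list was 162640 to 174270 in the control pools and 109510 to 124140 in the exposed pools. *Krt1-19e* (ENSDARG00000090268), a keratin outside that list with the second lowest p among the falls, was read at 8548, 10003, 9171 and 8870 in the controls and at 2791, 3897, 3347 and 3919 in the exposed pools, 2.62-fold lower (log2 −1.39 ± 0.08, adjusted p = 1.46e-21). *Krt15* (ENSDARG00000036840) was at 241, 248, 267 and 254 against 126, 116, 80.0 and 88.8 (2.47-fold lower, adjusted p = 9.12e-08). *Krt4* (ENSDARG00000017624), a keratin of the periderm and among the most abundant transcripts, went from 61983, 70494, 64791 and 70037 to 42894, 41449, 40261 and 43084 (1.59-fold lower, log2 −0.67 ± 0.06, adjusted p = 1.76e-13). *Cyt1* fell 1.56-fold, *krt91* 1.69-fold and *krt5* 1.303-fold, each with all exposed pools below all controls. For *cyt1* and *krt91* the pools of every other exposed group of 48 hpf, BaP and 6-MBaP included, also lay below all controls. The highest of these was 39949 for *cyt1*, at 0.133 µM BaP, where the lowest control was 41476. For *krt91* it was 9498, at 0.133 µM 6-MBaP, where the lowest control was 9698. *Krt97* at 467 ± 31.0 against 323 ± 43.9 was called (adjusted p = 0.00139), though not without control pools A and B (adjusted p = 0.111).

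Of 52 epidermal genes outside the keratins, 5 fell and 0 rose (median −0.13), with 2 called without exposed pool D or control pool D and 3 without exposed pool A. With all libraries in the fit 9.62% were called, beside 1.54% of all genes tested. *Muc5.1* (ENSDARG00000070331), a gel-forming mucin, was at 129, 128, 211 and 129 in the controls, pool C standing high, and at 66.6, 52.96, 60.5 and 108 in the exposed pools (2.06-fold lower, adjusted p = 5.11e-05). *Pkp1b*, a plakophilin of desmosomes, the junctions that hold skin cells together, went from 121 ± 13.98 to 64.8 ± 10.9 (1.88-fold lower, adjusted p = 0.00228; without control pools A and B 0.0772). *Anxa2a* (ENSDARG00000003216), a calcium-dependent membrane binder, fell 1.595-fold, from 1702, 1353, 1357 and 1450 to 852, 1020, 857 and 944 (adjusted p = 3.45e-08). It was 1 of 2 annexins that fell among 17. The other, *anxa1c*, went from 1625 ± 232 to 1192 ± 162 (adjusted p = 0.00521) and was not called without exposed pool D (0.0505) or without control pools C and D (0.0619). The locus *zgc:136930* fell 2.24-fold, *si:dkey-65b12.6* 2.55-fold and *kera*, which encodes keratocan, a small proteoglycan best known from the cornea, 1.84-fold, and the exposed and control pools did not overlap for any of these.

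Skin ionocytes, the salt-transporting cells that stand in for gills at this age, gave 5 falls and 0 rises among 30 genes (median −0.14). That is 16.7% called, beside 1.54% of all genes tested. The list as a whole did not shift clearly, with 14 members above 0 and 16 below. Its summed level overlapped, at 3131.5 to 3581.8 in the controls and 3070.2 to 3316.4 in the exposed pools. With 1 library left out the count of calls ran from 2 to 4. It was 3 or fewer without any of the exposed pools or without control pool A or D. It was also 3 without control pools A and B and without control pools C and D. *Ca15a* (ENSDARG00000015654), the carbonic anhydrase of acid-secreting ionocytes, was at 114, 131, 114 and 147 in the controls and at 30.7, 33.6, 38.2 and 73.1 in the exposed pools (2.86-fold lower, log2 −1.51 ± 0.21, adjusted p = 6.98e-07), and exposed pool D was the highest but below all controls. *Rhbg* (ENSDARG00000009018), an ammonia channel, went from 393, 404, 430 and 491 to 247, 328, 190 and 254 (1.69-fold lower, adjusted p = 6.14e-05). The 3 others were read at low counts. *Foxi3b*, the forkhead factor that sets ionocyte fate, was at 26.8 ± 10.7 against 11.3 ± 2.65 (adjusted p = 0.0426; not called without any of the exposed pools or without control pool A or B, up to 0.279, and at 0.528 without both). *Slc12a10.2*, the sodium-chloride cotransporter, was at 12.9 ± 3.95 against 2.92 ± 3.37 (adjusted p = 0.0432; not called without exposed pool A or C or control pool A, C or D, up to 0.204, nor without control pools A and B at 0.061 or C and D at 0.28). *Clcn2c*, a chloride channel, was at 2.45, 1.07, 4.50 and 10.5 in the controls and at 0 in all exposed pools, at least 1.57-fold lower by the 3-count floor (adjusted p = 0.022; not called without any of the exposed pools or without control pool D, up to 0.112, nor without control pools C and D at 0.272).

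**Figure D3:**
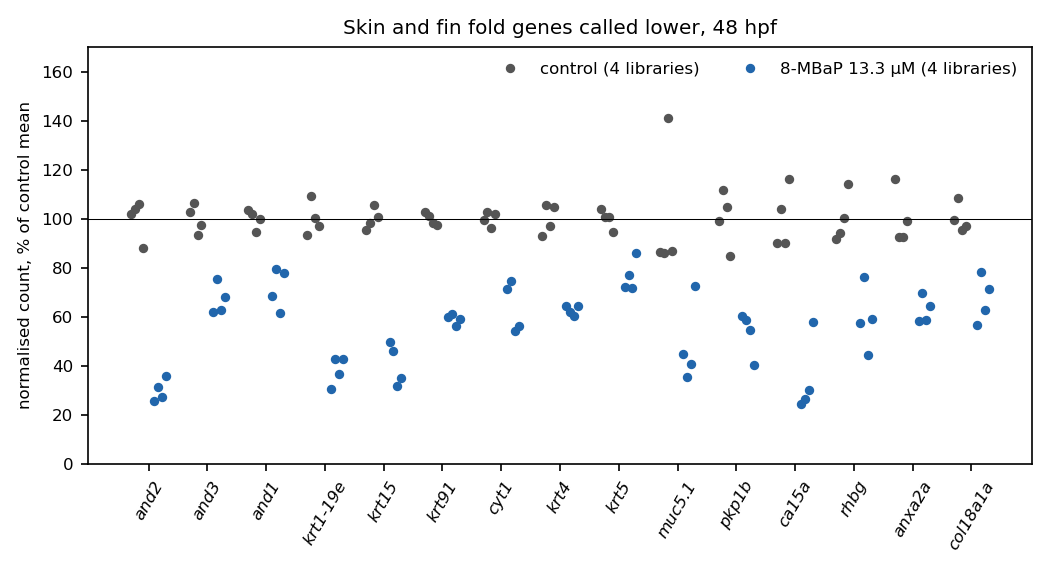
Normalised counts of 15 skin and fin fold genes called lower, as % of the gene's control mean on the y axis, with 1 point for each library, controls in grey and 13.3 µM 8-MBaP in blue. The exposed pools of *and2* lie at 25.7 to 35.7% and those of *krt1-19e* at 30.5 to 42.8%, while for *krt5* they reach 86.1%. Control pool C of *muc5.1* stands at 141%.

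Of 51 collagen genes tested, 6 fell, 0 rose and 45 were not called, so that 11.8% were called, beside 1.54% of all genes tested. Their median log2 fold change was −0.18, and 3 were called without exposed pool C or control pool A, or without control pools A and B. *Col18a1a* (ENSDARG00000036558), for a basement membrane collagen, went from 1023, 1113, 979 and 997 to 583, 804, 647 and 732 (1.49-fold lower, adjusted p = 7.76e-06). The locus with the human counterpart COL10A1 (ENSDARG00000054753), a collagen of forming bone, went from 404, 341, 432 and 506 to 266, 273, 148 and 211 (1.88-fold lower, adjusted p = 5.59e-05). In both cases the groups did not overlap.

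Against these falls stood rises among regulators of the fin fold and the ectoderm. Of 35 fin fold and ridge regulators, 3 rose and 1 fell (median 0.14), with 2 called without control pool B. All libraries together gave 11.4% called, beside 1.54% of all genes tested. *Msx2b*, a homeobox target of BMP signals, rose 1.89-fold from 56.3, 105, 73.2 and 89.8 to 134, 195, 158 and 127 (adjusted p = 0.000732). *Sp9*, a zinc finger factor of the apical ridge, went from 99.7 ± 13.3 to 163 ± 22.2 (adjusted p = 0.00364; 0.0758 without control pools C and D). *Bmp4*, the growth factor, was at 151 ± 21.5 against 230 ± 24.4 (adjusted p = 0.0144; up to 0.105 without exposed pool C or control pool B, and 0.302 without control pools A and B). *Bhlha9*, a limb ridge factor, was at 58.8, 65.1, 25.9 and 38.5 against 8.46, 14.3, 26.1 and 27.7, with overlapping groups (adjusted p = 0.0211; up to 0.137 without exposed pool A or B or control pool A or B, and 0.607 without control pools A and B together). *Dlx3b* (ENSDARG00000014626), a homeobox gene of the placodes and median fin fold, rose without overlap, from 119, 114, 129 and 117 to 197, 210, 227 and 243 (1.83-fold, log2 0.87 ± 0.13, adjusted p = 1.54e-06). *Tfap2c*, a factor of the early ectoderm, rose 1.47-fold to 370 ± 30.4 (adjusted p = 0.00376; 0.111 without control pools C and D). These 2 were the rises among 30 otic and placode genes, with 0 falls.

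The Hippo pathway restrains the co-activator Yap, whose usual readouts are the secreted CCN proteins. Of 22 Hippo targets, 4 rose and 0 fell, which is 18.2% called, beside 1.54% of all genes tested. Their median log2 fold change was 0.44, and 2 were called without control pools A and B. *Ccn2a* (ENSDARG00000042934) went from 114, 124, 81.1 and 154 to 192, 225, 244 and 188 (1.80-fold, adjusted p = 0.000633), and *ccn2b* from 1.22, 12.8, 20.3 and 18.7 to 47.6, 47.9, 64.2 and 61.0 (adjusted p = 0.0044; 0.25 without control pools A and B). *Ccn1* was at 98.2 ± 10.8 against 148 ± 27.8 (adjusted p = 0.0476; not called without exposed pool C or D or control pool A, C or D, up to 0.303, nor without control pools A and B at 0.154 or C and D at 0.245). *Foxf2a*, a forkhead factor of mesenchyme, had the lowest p of the 4, at 35.5, 49.1, 41.7 and 61.8 against 88.8, 117, 159 and 105 (2.499-fold, log2 1.32 ± 0.20, adjusted p = 6.3e-06). It is also a member of the hedgehog target list, in which 2 of 26 genes rose and 0 fell. The 3 CCN genes and the locus with the human counterpart THBS1 (ENSDARG00000010785, 370 ± 50.3 against 504 ± 27.5, adjusted p = 0.00798, 0.0727 without control pool D and 0.254 without control pools C and D) were the 4 rises among 31 matricellular genes, of which 2 were called without control pool D or without either control pair.

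The list of BMP and TGF-beta targets and modulators held 5 rises and 1 fall among 42 genes (median 0.10). The 5 were *wfikkn1*, *ccn2a*, *ccn2b*, *msx2b* and *bmp4*, all described above. The 1 fall is not named here, and 0 falls were called without control pools A and B or without C and D.

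Of 61 lens genes, 15 fell and 0 rose, which is 24.6% called, beside 1.54% of all genes tested. Their median log2 fold change was −0.27, and with 1 library left out the count ran from 12 to 19. It was 13 without control pools A and B and 11 without control pools C and D. The leading genes were gamma-crystallins of the M type, the densely packed proteins of the fish lens, whose near-identical copies may share reads. *Crygm2d13* (ENSDARG00000057460) was at 12528, 11837, 14212 and 12009.6 in the controls and at 9762, 8979, 6826 and 7511 in the exposed pools (1.53-fold lower, adjusted p = 1.53e-06). *Crygm2d20* fell 1.57-fold, *crygm2d14* 1.57-fold, *crygm2d18* 1.48-fold and *crygm2d19* 1.40-fold. The summed level of the list was 146110 to 164320 in the controls and 105540 to 140820 in the exposed pools, so the sums did not overlap. Photoreceptor genes had a median of −0.36 over 45 members, of which 1 rose and 2 fell. *Pde6ha* (ENSDARG00000102558), an inhibitory subunit of the phosphodiesterase of cone vision, was the rise: 17.1, 9.60, 38.3 and 12.8 against 107, 63.1, 55.8 and 69.4 (3.77-fold, adjusted p = 3.67e-05). *Gnb3a*, a G protein beta subunit gene, fell from 124 ± 20.8 to 68.3 ± 11.7 (adjusted p = 0.00645; 0.194 without control pools A and B).

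Immune and blood genes moved in both directions. Of 34 inflammation genes, 3 rose and 2 fell, which is 14.7% called, beside 1.54% of all genes tested. The count was 2 without exposed pool C or without control pools A and B, and 3 without control pool D or without control pools C and D. *Cxcl8a* (ENSDARG00000104795), the neutrophil-attracting chemokine, fell from 23.3, 42.7, 24.8 and 23.3 to 7.40, 3.06, 5.58 and 7.40 (4.79-fold lower, log2 −2.26 ± 0.40, adjusted p = 0.000109). *Cxcl18b* rose from 18.54 ± 8.60 to 57.1 ± 16.8 (adjusted p = 0.00417; 0.0774 without control pools A and B). *Cxcl19*, outside that list, rose from 2.45, 4.27, 0 and 3.499 to 24.3, 49.9, 50.3 and 11.1 (adjusted p = 6.15e-05). *Lyz* (ENSDARG00000057789), the lysozyme of neutrophils and macrophages, was at 497, 941, 718 and 606 against 334, 469, 262 and 288 (2.05-fold lower, adjusted p = 2.04e-08). At 13.3 µM 6-MBaP its pools stood at 385, 396, 413 and 458, also below all controls. *Lyz* was 1 of 2 falls, beside 1 rise, among 34 blood stem and myeloid genes. The rise was *mmp13a*, a collagenase, from 20.8, 6.40, 15.8 and 9.33 to 69.8, 80.5, 55.8 and 50.9 (4.92-fold, adjusted p = 0.000109). Of 31 erythroid genes, *hbbe3*, an embryonic beta globin, rose 1.68-fold from 1076 ± 222 to 1808 ± 194 (adjusted p = 0.000854; 0.0537 without control pools A and B) and *nt5c2l1*, a nucleotidase, 2.64-fold from 101 ± 21.1 to 267 ± 48.9 (adjusted p = 1.39e-07).

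*Lgals1l1* (ENSDARG00000088711), a galectin, which binds sugars at the cell surface, rose 3.099-fold from 1581, 1597, 1430 and 1293 to 4281, 6750, 3609 and 3655 (adjusted p = 3.03e-05). *Ptgdsb.2*, a lipocalin-type prostaglandin D synthase, rose 3.98-fold to 101 ± 13.6 (adjusted p = 3.42e-08), and *pck1*, an enzyme of glucose synthesis, 2.01-fold from 157 ± 48.2 to 315 ± 67.3 (adjusted p = 9.21e-05). *Ctsl.1* and *ctss2.1*, cysteine proteases of lysosomes, rose 4.82-fold and 2.46-fold (adjusted p = 0.000684 and 0.00113) as 2 of 3 rises among 19 cathepsins. *Rbp4*, the retinol carrier of plasma, fell 1.40-fold (adjusted p = 0.000187). *Igf2b* and *myb*, which the study names as raised and lowered at 48 hpf, were not called by edgeR. Their log2 fold changes were 0.45 and −0.72 (adjusted p = 0.0566 and 0.0756), and DESeq2 called both (0.0343 and 0.0365). *Igf2b* was called by edgeR without control pools A and B (0.0457). *Apoa4b.1*, an apolipoprotein, differed between the control pairs: control pools A to D were at 8508, 8038, 5103 and 4192 and the exposed pools at 3547, 3967, 3865 and 3608, and the call (adjusted p = 2.87e-05) was lost without control pools A and B (0.431). The call of *trh*, thyrotropin-releasing hormone, rested on 1 pool (adjusted p = 0.000624). Its exposed pools stood at 39.1, 39.7, 150 and 32.4, all above the 9.01 to 22.2 of the controls. Without exposed pool C the fitted log2 rise was 1.19 and was not called (adjusted p = 0.147). *Duox*, the peroxide source of thyroid hormone synthesis, was at 13.5, 20.3, 20.3 and 18.7 against 4.23, 10.19, 4.65 and 3.70 (adjusted p = 0.0429; not called without exposed pool A, C or D or control pool B, C or D, up to 0.151, nor without control pools A and B at 0.142 or C and D at 0.165).

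Of 55 lists, 17 held no called gene by edgeR. Among their 502 tested members, 71 had an unadjusted p under 0.05, beside 2060 of all 17794 genes tested, and DESeq2 called 10. These lists covered the cell cycle (0 of 50 called, 3 at an unadjusted p under 0.05, 1 by DESeq2), ER and heat stress (0 of 61, 4, 1), hypoxia and glycolysis (0 of 43, 12, 4), immediate early genes (0 of 45, 11, 0), Notch targets (0 of 28, 8, 1), FGF targets (0 of 23, 3, 1), endothelium (0 of 31, 2, 1) and the central nervous system (0 of 49, 8, 0), among others, and their medians lay between −0.31 and 0.18. Of 56 p53 and DNA damage genes, the single call was *sult6b1*, the sulfotransferase above, which also stands in the AHR list.

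**Figure D4:**
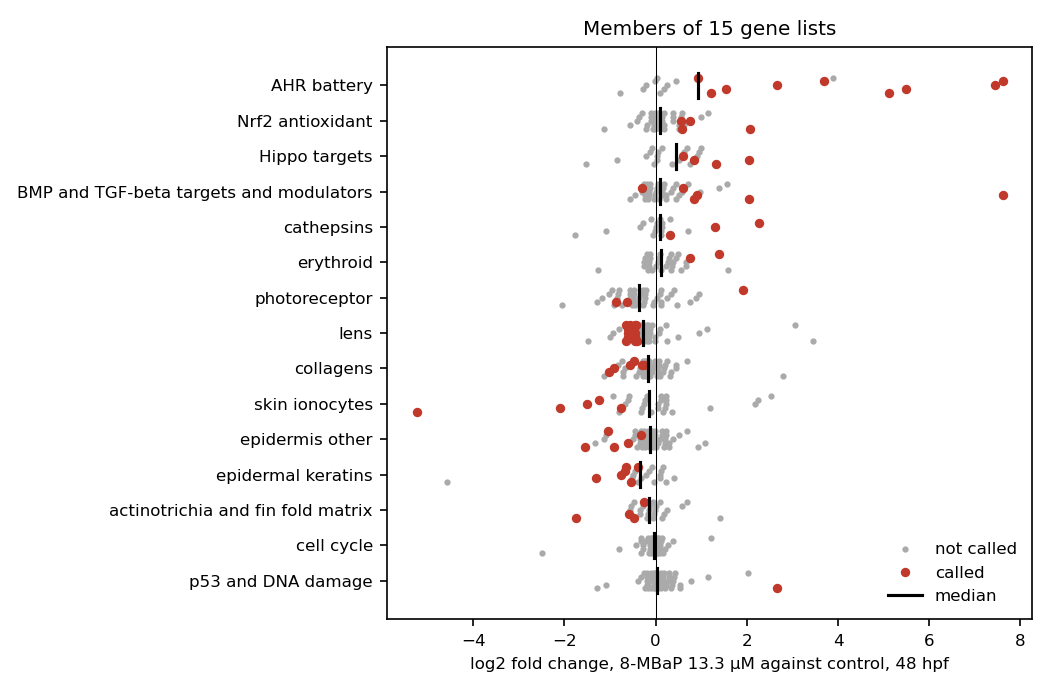
Fitted log2 fold change of 13.3 µM 8-MBaP against control at 48 hpf (x axis) for the tested members of 15 gene lists (y axis), each point a gene, called genes in red and the rest in grey, with a black bar at the list's median. The AHR battery reaches furthest to the right, keratins and lens genes lie to the left with medians of −0.35 and −0.27, and the cell cycle list holds no called gene. Genes at 0 in a group, such as *wfikkn1* and *clcn2c*, are placed by the prior count of the fit.

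The 13.3 µM group was next set beside the lower concentrations of the same compound. *Cyp1a* averaged 32.4 ± 4.43 in the controls, 2234 at the lowest, 4996 ± 415 at the middle and 5731 ± 528 at the highest concentration. The pools at 1.33 µM ran from 4449 to 5454 and overlapped those at 13.3 µM, and the difference was 0.20 on the log2 scale (95% interval −0.03 to 0.42, adjusted p = 0.921). *Sult6b1* averaged 383, 1366, 2212 and 2440 in the same order, with a last step of 0.14 (interval −0.05 to 0.33, adjusted p = 0.946). *Cyp1b1* averaged 25.5, 263, 630 and 885, with a last step of 0.49 (interval 0.20 to 0.78, adjusted p = 0.629), and *cyb5a* 154, 283, 636 and 936, with a last step of 0.56 (interval 0.30 to 0.81, adjusted p = 0.119). Among the falls, *and2* averaged 2397, 1760, 1039 and 719, and *krt1-19e* 9148, 7491, 4466 and 3488, with a last step of −0.36 (interval −0.52 to −0.19, adjusted p = 0.119).

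Between 13.3 and 1.33 µM, 4 genes were called of 17794 tested, 0.0225%, with 2 in each direction (0.0112%). *And2* was lower by 0.53 ± 0.10 on the log2 scale (1039 ± 183 against 719 ± 106, adjusted p = 0.0127), although its highest pool at 13.3 µM, 856, lay above the lowest at 1.33 µM, 782. The locus *zgc:136930* was lower by 0.51 ± 0.09 (1032 ± 106 against 724 ± 48.0, adjusted p = 0.00688). *Lgals1l1* was higher at 13.3 µM, at 3609 to 6750 against 1014 to 2119 (log2 1.36 ± 0.27, adjusted p = 0.0141), but was not called by DESeq2 (adjusted p = 0.26). *Si:dkey-97i18.5*, which was named after its values were seen, was at 125, 56.0, 175 and 150 against 29.4 to 57.3 (log2 1.42 ± 0.25, adjusted p = 0.00688). Each of the 4 calls was lost with some single pools left out: *and2* was not called without pool A or C of 13.3 µM or pool B or D of 1.33 µM, *zgc:136930* without pool C of 13.3 µM or pool B or D of 1.33 µM, *lgals1l1* without pool B of 13.3 µM or pool A, B or D of 1.33 µM, and *si:dkey-97i18.5* without pool C of 13.3 µM or pool A or D of 1.33 µM, with adjusted p of up to 0.355. The count itself ran from 0, without pool D of 1.33 µM, to 7, without pool D of 13.3 µM.

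Compounds that differ by the methyl group were compared at the matched concentration of 13.3 µM and at 48 hpf, in 2 pairs, with p-values adjusted over all genes within each pair. These comparisons use the same 8-MBaP libraries as the comparison with the controls.

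Against BaP, the parent without the methyl group, 145 genes were called (0.815%), 81 higher in 8-MBaP (0.455%) and 64 lower (0.36%). The count was 71 without BaP pool B, 80 without 8-MBaP pool C, 85 without BaP pool C and 87 without BaP pool D. Of the 19 AHR battery genes, 6 were higher in 8-MBaP and 0 lower. *Cyp1a* averaged 1960 ± 414 in BaP, with pools from 1553 to 2358, all below the 5113 of the lowest 8-MBaP pool, and the difference was 1.55 ± 0.12 on the log2 scale (adjusted p = 4.5e-16). *Cyp1b1* was at 148 ± 25.2 in BaP against 885 ± 77.5 (log2 2.58 ± 0.16, adjusted p = 1.38e-19), and *cyp1c2* at 22.1 ± 6.43 against 186 ± 29.1 (log2 3.06 ± 0.33, adjusted p = 2.89e-10). *Cyb5a* was at 229 ± 52.3 against 936 ± 205 (log2 2.03 ± 0.14, adjusted p = 2.19e-18) and *nfe2l2a* at 393 ± 51.3 against 659 ± 58.2 (log2 0.74 ± 0.11, adjusted p = 9.25e-06). *Gstp1.2* did not differ beyond its error: BaP stood at 18731 ± 3967 and 8-MBaP at 20936 ± 1776, a difference of 0.16 with an interval of −0.04 to 0.36 (adjusted p = 0.583). The same held for *prdx1* (2399 ± 369 in BaP, difference −0.17, interval −0.37 to 0.03, adjusted p = 0.56).

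Among fin fold and skin genes, 2 of 26 actinotrichia and fin fold matrix genes, 3 of 22 keratins, 2 of 52 other epidermal genes and 2 of 30 ionocyte genes were lower in 8-MBaP than in BaP, and 0 in these lists were higher. *And2* was at 1606 ± 139 in BaP against 719 ± 106 (log2 −1.16 ± 0.10, adjusted p = 2.1e-13) and *krt1-19e* at 7270 ± 847 against 3488 ± 535 (log2 −1.06 ± 0.08, adjusted p = 9.63e-16). *And1*, at 1963 ± 139 in BaP against 1704 ± 201, was not called (log2 −0.20, interval −0.38 to −0.03, adjusted p = 0.355). *Krt4* was at 57065 ± 1504 in BaP against 41922 ± 1326 (log2 −0.44 ± 0.06, adjusted p = 4.75e-07) and *anxa2a* at 1483 ± 121 against 918 ± 79.6 (log2 −0.69 ± 0.08, adjusted p = 3.58e-08). *Kera* at 371 ± 33.2 against 204 ± 27.8 (log2 −0.86 ± 0.11, adjusted p = 2.66e-07) and *si:dkey-65b12.6* at 383 ± 31.5 against 175 ± 22.3 (log2 −1.13 ± 0.14, adjusted p = 3.58e-08) differed likewise. *Ca15a* was at 96.9 ± 36.7 against 43.9 ± 19.7 (adjusted p = 0.0011), a difference not called without BaP pool B (0.0657).

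Against 6-MBaP, the isomer with the methyl group at position 6, 130 genes were called (0.731%), 73 higher in 8-MBaP (0.41%) and 57 lower (0.32%). Without 1 library the count ran from 90 to 122. *Cyp1a* averaged 147 ± 26.2 in 6-MBaP, with pools from 131 to 186, and was 5.28 ± 0.14 higher on the log2 scale in 8-MBaP (adjusted p = 4.89e-40). Of the AHR battery, 8 genes were higher and 0 lower. The difference was 4.38 ± 0.18 for *cyp1b1* (42.9 ± 13.6 in 6-MBaP, adjusted p = 4.36e-29), 4.61 ± 0.37 for *cyp1c2* (7.65 ± 5.44, adjusted p = 2.67e-15), 2.24 ± 0.10 for *sult6b1* (516 ± 38.2, adjusted p = 2.67e-27) and 1.69 ± 0.14 for *foxq1a* (139 ± 32.7, adjusted p = 2.56e-14). *Gstp1.2*, for which BaP and 8-MBaP did not differ beyond error, was at 7175 ± 182 in 6-MBaP and 1.54 ± 0.10 higher in 8-MBaP (adjusted p = 1.86e-19). *And2* was at 2081 ± 191 in 6-MBaP (log2 −1.53 ± 0.10, adjusted p = 4.68e-19), *krt1-19e* at 9017 ± 333 (log2 −1.37 ± 0.08, adjusted p = 4.03e-21) and *cxcl8a* at 27.0 ± 6.96 (log2 −2.18 ± 0.39, adjusted p = 0.000286). *Ahr2*, at 81.4 ± 13.2 in 6-MBaP and 84.0 ± 10.26 in BaP against 126 ± 18.997, passed the threshold in neither pair (differences 0.63 and 0.58, intervals 0.30 to 0.97 and 0.24 to 0.92, adjusted p = 0.0521 and 0.0946).

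The lens genes did not follow this order. No lens gene was lower in 8-MBaP than in BaP or 6-MBaP by edgeR at 13.3 µM (0 of 61 in each pair, and 1 gene called higher than in BaP). At an unadjusted p under 0.05, 5 and 2 lens genes were lower, beside 949 and 763 of all 17794 genes tested. *Crygm2d13* averaged 12647 in the controls, 8270 ± 1340 in 8-MBaP, 9758 ± 901 in BaP and 9022 ± 831 in 6-MBaP. Its difference was −0.24 from BaP (interval −0.42 to −0.06, adjusted p = 0.245) and −0.13 from 6-MBaP (interval −0.30 to 0.05, adjusted p = 0.76), and it stood at 9177 at 0.133 µM 8-MBaP.

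**Figure D5:**
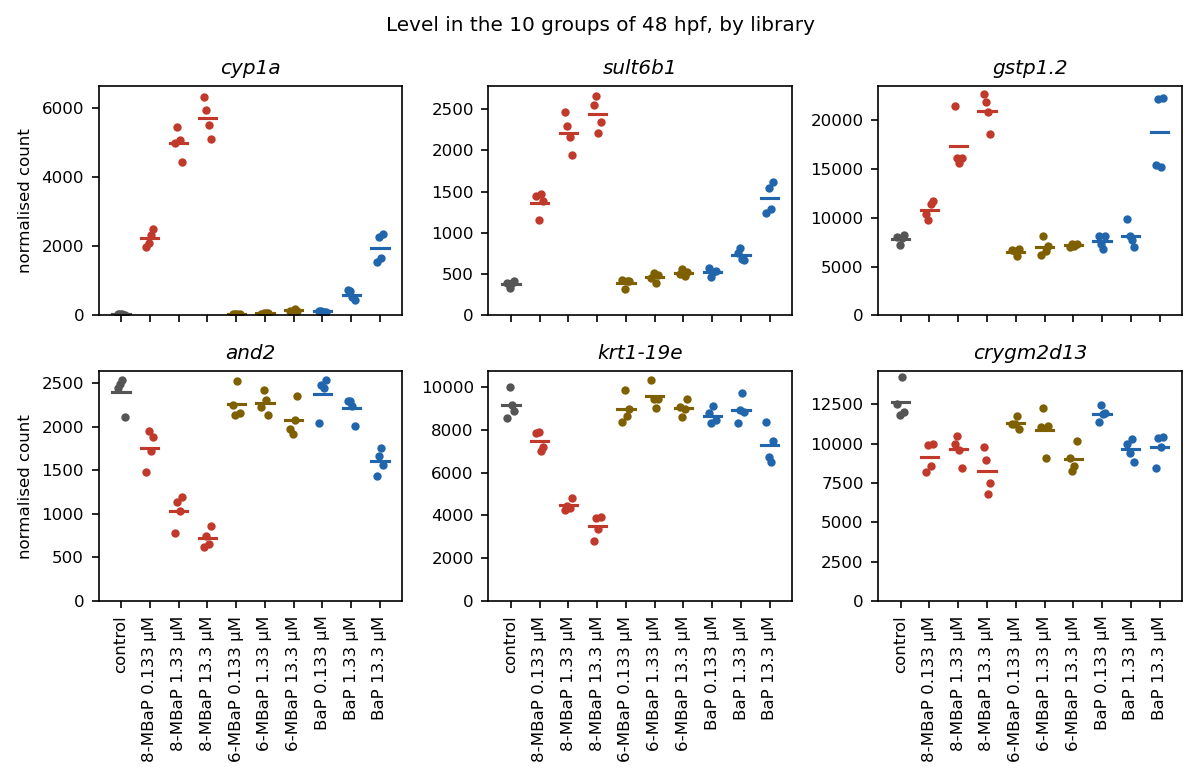
Normalised counts (y axis) of 6 genes in the 10 groups of 48 hpf (x axis), 1 point for each library and a line at each group's mean, with controls in grey, 8-MBaP in red, 6-MBaP in brown and BaP in blue. *Cyp1a* and *sult6b1* climb with 8-MBaP and less with BaP, and *gstp1.2* reaches 18731 in BaP and 20936 in 8-MBaP at 13.3 µM. *And2* and *krt1-19e* descend with 8-MBaP and less at 13.3 µM BaP, where all pools still lie below all controls. *Crygm2d13* is below the control mean in all 9 exposed groups.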

How the data were processed

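Pooled whole embryos were measured by 3′ BRB-seq, a bulk method that tags each library with a barcode. The authors deposited raw read counts per Ensembl gene, 32520 genes by 80 libraries, which a sequencing service had mapped, demultiplexed and counted; aligner and genome build are not given in the sources used here. Of the gene IDs, 16476 were named by zebrafish symbol and 8027 by a zebrafish symbol inferred from a human counterpart. Loci given here with a human counterpart kept their ID. Of 2151 list genes, 1589 were paired with an ID.

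Libraries were grouped by their labels. Genes reaching 5 reads in 2 or more libraries, out of 40 at 48 hpf, were kept (17794), scaled by TMM and fitted over all 10 groups with edgeR 4.0.16 (R 4.3.3), and tested with its quasi-likelihood F test, Benjamini-Hochberg adjustment and a threshold of 0.05. The SE of a log2 fold change is its size divided by the square root of F, and intervals cover 95%. Pools of a group share 1 plate, so p-values measure only the spread between pools of that plate. Alternatives were DESeq2 1.42.0, other scaling and filters, the letter as a block, the 8 libraries alone, and each library left out. Folds against a group at 0 used a floor of 3 counts per library.

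The 55 gene lists, with the genes in them, were chosen with earlier results of these data known. The libraries compared were taken by their labels. Genes were named by rule: those the study's text names, the largest changes without overlap, the lowest p, the highest levels, the AHR battery, the leading called members of each list, the largest differences in each direct comparison, and called genes at 0 in a group. Not every gene these rules cover is printed. For genes named as the largest changes or differences, the lack of overlap was a condition of being named and adds no support. The fit was also run on simulated data, with changes set only in genes above the median level. The recovery of changes at low counts was therefore not covered, and the outcome is not given here. No sequences were used here.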

Additional observations from a re-analysis of the deposited data

Results flagged for a closer look

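The 204 groups of 4 pools screened covered the named genes and some measures of the libraries, such as their total counts. They include some groups with equal values in all pools, which were skipped. In 13 groups, all of named genes, a pool stood apart from the other 3 by Dixon's test, which chance alone does for about 1 group in 20. In the exposed group, *trh* stood at 149.8 normalised counts in pool C (the others 32.4 to 39.7), *wfikkn1* at 32.6 in pool C (21.1 to 22.4), *si:dkey-65b12.6* at 208 in pool A (160 to 168), *ptgdsb.2* at 122 in pool A (92.7 to 97.1), *gnb3a* at 85.7 in pool A (61.0 to 64.2) and *duox* at 10.19 in pool B (3.70 to 4.65). *Si:ch211-207n23.2* was low in exposed pool D, at 148 (252 to 272), and *nt5c2l1* in exposed pool B, at 193.5 (288 to 297). Among the controls, pool B was high for *nt5c2l1*, at 132 (89.0 to 92.1), and for *cxcl8a* and *foxi3b*, each at 42.7 (23.3 to 24.8 and 19.8 to 23.3). Control pool C was high for *muc5.1*, at 210.6 (128 to 129), and for *slco1d1*, at 63.1 (33.1 to 37.3). Of these, *trh* lost its call without exposed pool C (adjusted p = 0.147 by edgeR) and *foxi3b* without control pool B (0.279), the pools that stood apart.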

How the results depend on the processing

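Against the control, 274 genes were called, and with 1 library left out 171 to 263, the lowest without exposed pool C. In alternatives chosen after seeing the data, 152 were called without control pools A and B and 267 without control pools C and D; the causes of these shifts were not tested. Of the 274, DESeq2, which called 398, shared 250. Against 1.33 µM the count of 4 became 29 with no filter on low counts and 0 to 7 with 1 library left out. Against BaP, 145 became 231 by DESeq2, 244 with no filter and 71 to 169 with 1 library left out. Against 6-MBaP, 130 became 209 with no filter and 90 to 122 with 1 library left out, and with the 8 libraries alone 138, of which 94 were higher, a share of 68.1% in place of 56.2%. No called gene named here reversed its direction in the alternatives run; the uncalled *nqo1* went from 0.18 to −0.0002 without exposed pool B. Sharing a letter did not pair libraries: same-letter correlations of the deviations from the group means were 0.00203, −0.011, −0.0101 and 0.00522. With the letter as a replicate block, 266, 4, 145 and 131 genes were called in the same order of comparisons. With only the 8 libraries of a comparison fitted, 16 entries of named genes over the 4 comparisons lost their call, and 168 were unchanged. The other scalings moved the median of all genes by little, to −0.0002 with RLE and 0.0021 with upper-quartile scaling. Over all settings run it lay between −0.0094, without exposed pool C, and 0.0237, without control pools C and D.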
